A study of Homo sapiens with 12 samples.

Results

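The response of metformin-treated KP4 cells to FK866 was examined by comparing the 3 libraries of cells given both drugs (Met+FK) with the 3 libraries of cells given metformin alone (Met). These 6 libraries were chosen by their labels from the 12 of the series. The genes described are the 15376, of 36601 in the table, whose mean over all 12 libraries was at least 10 normalized counts. KP4 is an established human pancreatic ductal carcinoma cell line, labelled as wild type. In these cells the study found p53 protein undetectable. Both groups received 10 mM metformin for 24 h, so the drug is shared, and only Met+FK cells also received 5 nM FK866. The other 6 libraries, from cells given the DMSO vehicle or FK866 alone (FK), entered the fit and are quoted for their levels. All libraries come from this single line, and the labels number the replicates from 1 to 3 without saying whether they were separate cultures, so the p-values measure the spread between these libraries, which may be technical.

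FK866 blocks nicotinamide phosphoribosyltransferase, the enzyme encoded by NAMPT that salvages nicotinamide into NAD, the electron carrier of glycolysis and of the mitochondrial matrix. Metformin slows complex I of the respiratory chain, which reoxidises NADH. Cells under mitochondrial or amino acid stress switch on the integrated stress response, in which the factor ATF4 induces genes of amino acid supply together with further stress factors such as ATF3 and CHOP.

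The 6 libraries held from 31684313 to 41052203 counted read pairs (median of Met 32861501, of Met+FK 35270667). Of 9 ductal or epithelial markers, KRT8 lay between 2416 and 3008 normalized counts, KRT18 between 9398 and 11883 and SOX9 between 3912.5 and 4737 in the 6 libraries. KRT7 lay between 209 and 276, MUC1 between 103 and 157 and CDH1 between 47.0 and 86.5. EPCAM lay between 5.85 and 12.5, KRT19 between 14.6 and 31.5 and KRT17 between 0 and 2.47, so EPCAM, KRT19 and KRT17 were low or close to absent. The mesenchymal filament gene VIM lay between 93661 and 103760. Summed over their list, the ductal markers ranged from 16512 to 19695 in Met and from 16237.5 to 19674 in Met+FK, and acinar and endocrine markers summed to at most 1.65 in any library. Leukocyte markers summed to 921 to 980 in Met and 961 to 1011 in Met+FK, mostly from CD68, fibroblast markers to 86.0 to 120 and 94.1 to 131, and endothelial markers to 21.9 to 35.5 and 28.2 to 39.0, and their part in the results was not tested.

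The addition of FK866 moved few genes far. The log2 differences (Met+FK minus Met, on log2(normalized count + 1), which understates changes of low genes) had a median of 0.0063 and an SD of 0.196 over the tested genes, against SDs of 0.334 for FK against DMSO and 0.578 for Met against DMSO, and 79.3% of the genes differed by less than 0.2. In limma-trend, with calls made at a Benjamini-Hochberg adjusted p-value below 0.05 together with a change of more than 1.5-fold, 8 genes (0.052% of those tested) were higher and 1 (0.0065%) was lower in Met+FK. With the replicate number as a block, 18 (0.117%) were higher and 7 (0.0455%) lower, and all 9 genes of the first fit were among these 25. The block was fitted over all 12 libraries, so the DMSO and FK libraries also set its terms. With the block and only the 6 libraries compared, 18 were higher and 3 lower. The adjusted p-value alone, without the fold threshold, was passed with the block by 72 higher genes (0.468%) and 48 lower genes (0.312%), of which 54 and 41 moved by less than 1.5-fold. The median log2 difference was 0.39 among these 72 and −0.37 among these 48. After each library was corrected for its dependence on gene GC content and length, the split became 14 higher and 7 lower without the block and 17 and 18 with it, and with a common total for all libraries it was 6 and 2. With the GC and length correction and the block, 308 higher and 211 lower genes passed the adjusted p-value alone. Members of lists are counted in the fits without this correction unless stated.

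Genes also moved together in small steps. In all 3 replicate pairs, 3858 genes (25.1%) were higher and 2690 (17.5%) lower with FK866. For 1211 genes (7.88%) each Met+FK library lay above each Met library, and for 855 (5.56%) each lay below. The counts by pair lean on the scaling, since scaling all libraries to 1 common total left 2615 higher against 4086 lower and shifted the median of all genes to −0.033. Lists of related genes are therefore described by the count of members moving the same way in the 3 pairs and by their median difference, beside these values for all genes.

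**Figure D1:**
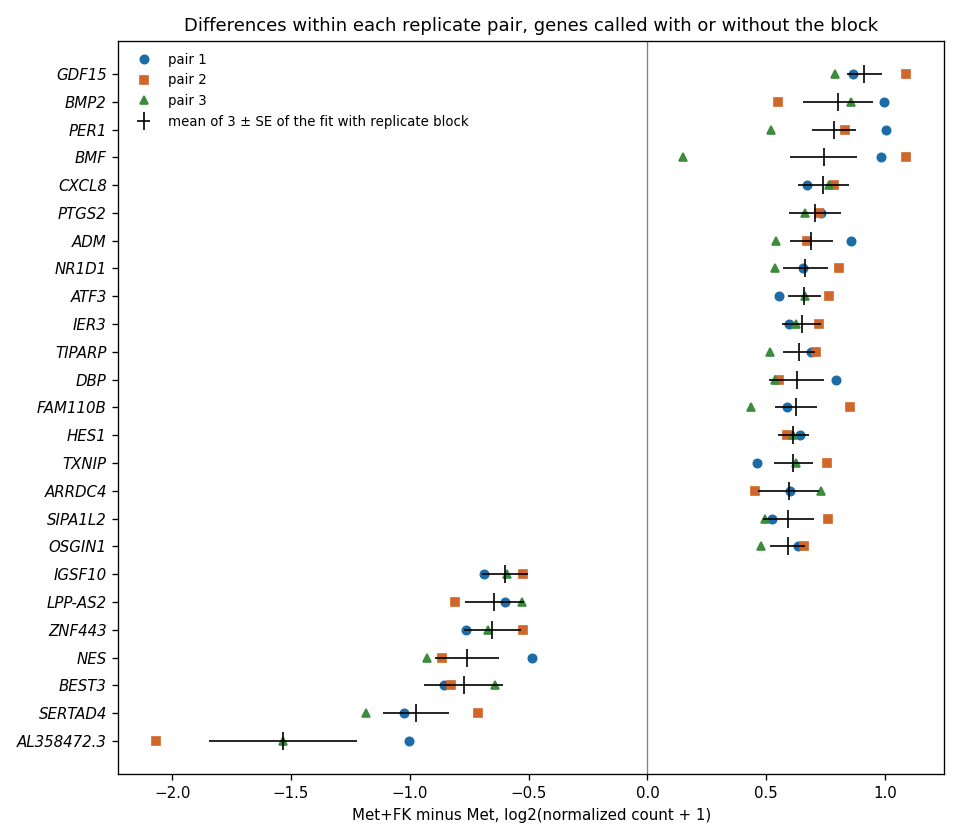
Log2 differences between Met+FK and Met within each replicate pair (coloured symbols) for the 25 genes called with or without the replicate block, with the mean of the 3 pairs and the standard error of the fit with the block. The pairs share a sign for each gene, and BMF in pair 3 (0.15) sits far below its other pairs (0.98 and 1.09).

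Among the called genes, the largest rise belonged to a gene of the integrated stress response. GDF15, a secreted factor of the TGF-β family and a stress signal induced by ATF4 and CHOP, had 1645, 1623 and 1988 normalized counts in the Met libraries and 2999, 3447 and 3433 in the Met+FK libraries (chromosome 19, 18374731 to 18389176, hg38). The groups were far apart, with each Met+FK value more than 1000 counts above the highest Met value. GDF15 rose 1.88-fold, a log2 difference of 0.91 with a standard error of 0.091 (limma-trend adjusted p = 0.000756, and 3.29e-05 with the block).

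ATF3, a transcription factor of the same response, had 4030, 3792 and 3940 normalized counts in Met and 5911, 6441 and 6230 in Met+FK (chromosome 1, 212565334 to 212620777). ATF3 rose by 0.66 on the log2 scale, with a standard error of 0.076 (limma-trend adjusted p = 0.00272). Its replicates were tight within either group, and both ATF3 and GDF15 passed the adjusted p-value threshold in all 6 fits that left out 1 of the 6 libraries. With the block, PPP1R15A (log2 difference 0.51, adjusted p = 0.00742 from limma-trend), the phosphatase subunit that ends the response, and DDIT3 (0.38, adjusted p = 0.00854), which encodes CHOP, rose as well. DDIT3 had 6439, 5411 and 4955 normalized counts in Met and 8054, 7166 and 6600 in Met+FK, a steady step within each pair (0.32, 0.41 and 0.41) on top of a spread between pairs. The pseudokinase gene TRIB3 was at 0.38 (adjusted p = 0.103 with the block from limma-trend) and the factor gene CEBPB at 0.18 (0.172), neither past the threshold.

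Over the 10 transcription factors and regulators of the integrated stress response, 9 were higher in all 3 pairs and 0 lower, with a median difference of 0.15 ± 0.029 (SD of the 3 pair medians). Here and below, the median is taken over the members' mean differences, so it can lie outside the range of the pair medians. Of 31 tested ATF4 target genes, 20 were higher and 1 lower in all 3 pairs (64.5% and 3.23%), and the median was 0.13, with pair medians from 0.12 to 0.13. Without Met+FK replicate 3 it was 0.067. The targets that passed with the block were GDF15, STC2, UPP1 and DDIT4. UPP1, the uridine phosphorylase that frees ribose from uridine, had 74584, 70847 and 74365 normalized counts in Met and 96755, 93124 and 98498 in Met+FK. These pairs differed by nearly the same step (0.38, 0.39 and 0.41 on the log2 scale), and UPP1 rose in both fits (adjusted p = 0.0280 from limma-trend, 0.00321 with the block). DDIT4, an inhibitor of mTORC1 signaling, rose by 0.33 with the block (adjusted p = 0.0179 from limma-trend) and STC2, a secreted glycoprotein, by 0.50 (adjusted p = 0.0223). ASNS, the asparagine synthetase gene, was at 0.17 with overlapping groups. With libraries scaled to the same total, the medians of the factors and the targets were 0.11 and 0.089, and 5 of the factors in place of 9 were higher in all 3 pairs.

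Among 21 endoplasmic reticulum chaperone and unfolded protein response genes, 14 were higher and 1 lower in all 3 pairs, with a median of 0.13 ± 0.023, and none passed the adjusted p-value with or without the block. With the GC and length trend removed and the block, 3 passed. The chaperone gene HSPA5, known as BiP, was higher by 0.26 (adjusted p = 0.0577 with the block from limma-trend) and the stress sensor ERN1, known as IRE1, by 0.38 (0.0577, and 0.00215 with the trend also removed). Of 20 aminoacyl-tRNA synthetase genes, 11 were higher and 1 lower in all 3 pairs (median 0.076 ± 0.033, and 0.027 without Met replicate 3), with AARS at 0.20, CARS at 0.14 and MARS at 0.12. For the p53 targets, the study found p53 protein undetectable in KP4 cells. Among 23 tested p53 target genes, 9 were higher and 3 lower in all 3 pairs, with a median of 0.056. The pair medians were 0.067, 0.088 and 0.091 (SD 0.013). The list median was 0.088 without Met replicate 1 and 0.030 without Met+FK replicate 1. GDF15, which the ATF4 targets also hold, was the single p53 target past the adjusted p-value with or without the block. With the GC and length trend removed and the block, 3 passed. GADD45A was at 0.37 (adjusted p = 0.0605 with the block from limma-trend), AEN at 0.15 and CDKN1A, the p21 gene, at 0.13 with overlapping groups.

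Promoter sequences are shown for 4 called genes whose 250 bases before a RefSeq start (GRCh38.p14) hold a response element of the pathways described here. RefSeq promoters were found for 20 of the 25 called genes. Matches were searched on both strands, and a match describes letters, not a bound site. The C/EBP-ATF response element core TGATGNAA, in capitals in ATF3, lies before 3.14% of all 35116 starts. The E-box CACGTG, in capitals in PER1 and ARRDC4, lies before 6.34%, and the carbohydrate response element, CACGNG and CACGNG set 5 bases apart and in capitals in TXNIP, before 0.0456%, that is 16 starts. Of the 20 genes, 1 held the first, 2 the E-box and 1 the carbohydrate response element.
ATF3, chr1:212565157-212565406, plus strand: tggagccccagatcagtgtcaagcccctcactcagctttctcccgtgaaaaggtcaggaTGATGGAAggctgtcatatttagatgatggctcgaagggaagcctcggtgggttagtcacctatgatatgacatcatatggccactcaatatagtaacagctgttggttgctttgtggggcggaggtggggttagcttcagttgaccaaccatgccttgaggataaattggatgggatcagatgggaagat
TXNIP, chr1:145996580-145996829, minus strand: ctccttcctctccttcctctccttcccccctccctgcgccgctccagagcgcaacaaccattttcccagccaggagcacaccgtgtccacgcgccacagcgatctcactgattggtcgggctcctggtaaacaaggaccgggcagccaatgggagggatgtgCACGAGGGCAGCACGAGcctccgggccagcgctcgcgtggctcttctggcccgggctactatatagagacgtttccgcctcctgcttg
ARRDC4, chr15:97960453-97960702, plus strand: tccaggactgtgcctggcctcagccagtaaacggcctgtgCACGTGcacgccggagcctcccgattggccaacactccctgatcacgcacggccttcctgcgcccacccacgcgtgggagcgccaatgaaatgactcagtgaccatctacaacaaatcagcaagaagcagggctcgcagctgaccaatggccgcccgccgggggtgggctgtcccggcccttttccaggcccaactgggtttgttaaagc
PER1, chr17:8152405-8152654, minus strand: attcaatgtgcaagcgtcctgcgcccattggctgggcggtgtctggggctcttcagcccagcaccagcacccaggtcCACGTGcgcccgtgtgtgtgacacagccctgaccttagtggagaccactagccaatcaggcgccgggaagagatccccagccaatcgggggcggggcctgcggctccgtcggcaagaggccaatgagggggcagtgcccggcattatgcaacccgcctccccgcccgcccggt
The shorter hypoxia response core ACGTG, which each E-box contains, was held by 4 of the 20 genes (18.5% of all starts), the CRE core TGACG by 8 (21.2%) and the AP-1 element TGANTCA by 3 (6.57%). ATF3 and TXNIP have 2 starts in the RefSeq table, and the sequences are those of the start with the match.

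TXNIP and a pair of its relatives rose with FK866. TXNIP, the thioredoxin-interacting protein that limits glucose uptake and is induced through carbohydrate response elements by the sugar-sensing factors MondoA and ChREBP with their partner MLX, had 917, 794 and 776 normalized counts in Met and 1262, 1339 and 1197 in Met+FK (chromosome 1, 145992435 to 145996579). The groups were separated by a wide gap, and TXNIP rose by 0.61 on the log2 scale, with a standard error of 0.094 (limma-trend adjusted p = 0.0220). ARRDC4, an α-arrestin that also restrains glucose uptake, had 180, 183 and 147 normalized counts in Met and 273, 251 and 245 in Met+FK (0.59, standard error 0.13, adjusted p = 0.0438 with the block from limma-trend). ARRDC3, a further α-arrestin, rose by 0.46 with the block (adjusted p = 0.0206 from limma-trend). In this list of 7 genes, 5 were higher and 0 lower in all 3 pairs, with a median of 0.14 ± 0.054 that ranged from 0.093 without Met replicate 2 to 0.23 without Met replicate 3. The factor genes MLXIP, which encodes MondoA, and MLX were at 0.14 and 0.058 with overlapping groups.

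The list with the largest median was that of the circadian clock. Of 18 genes, 14 (77.8%) were higher and 0 lower in all 3 pairs, and the median was 0.25 ± 0.10. Without overlap between the groups 9 were higher, against 7.88% of all genes. The median held in other settings. It stayed at 0.27 with the GC and length trend removed and at 0.21 with libraries scaled to the same total. PER1, a repressor of the clock, had 653, 656 and 904 normalized counts in Met and 1311, 1169 and 1296 in Met+FK (chromosome 17, 8140472 to 8156506). Met replicate 3 was high, but below each Met+FK library, and PER1 rose by 0.79 on the log2 scale, with a standard error of 0.13 (limma-trend adjusted p = 0.0280). NR1D1, which encodes the repressor REV-ERBα, had 656, 671 and 844 normalized counts in Met and 1033, 1172 and 1223 in Met+FK, again with replicate 3 highest in either group. Its log2 difference was 0.66 (adjusted p = 0.322 from limma-trend without the block, 0.00316 with it). DBP, a PAR-domain activator of clock output, went from 159, 165 and 189 normalized counts to 276, 243 and 274, without overlap (0.63, adjusted p = 0.0185 with the block from limma-trend).

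The other clock genes past the threshold with the block were TEF, a relative of DBP (0.38, adjusted p = 0.0184 from limma-trend), and NFIL3, a repressor at the same DNA sites (0.39, adjusted p = 0.0386). The repressor genes PER2, CRY2 and BHLHE40 were at 0.20, 0.29 and 0.32, each without overlap between the groups and without passing the threshold. In the positive arm, CLOCK was at −0.06, ARNTL, which encodes BMAL1, at 0.11 and NPAS2 at 0.08, and all these groups overlapped.

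**Figure D2:**
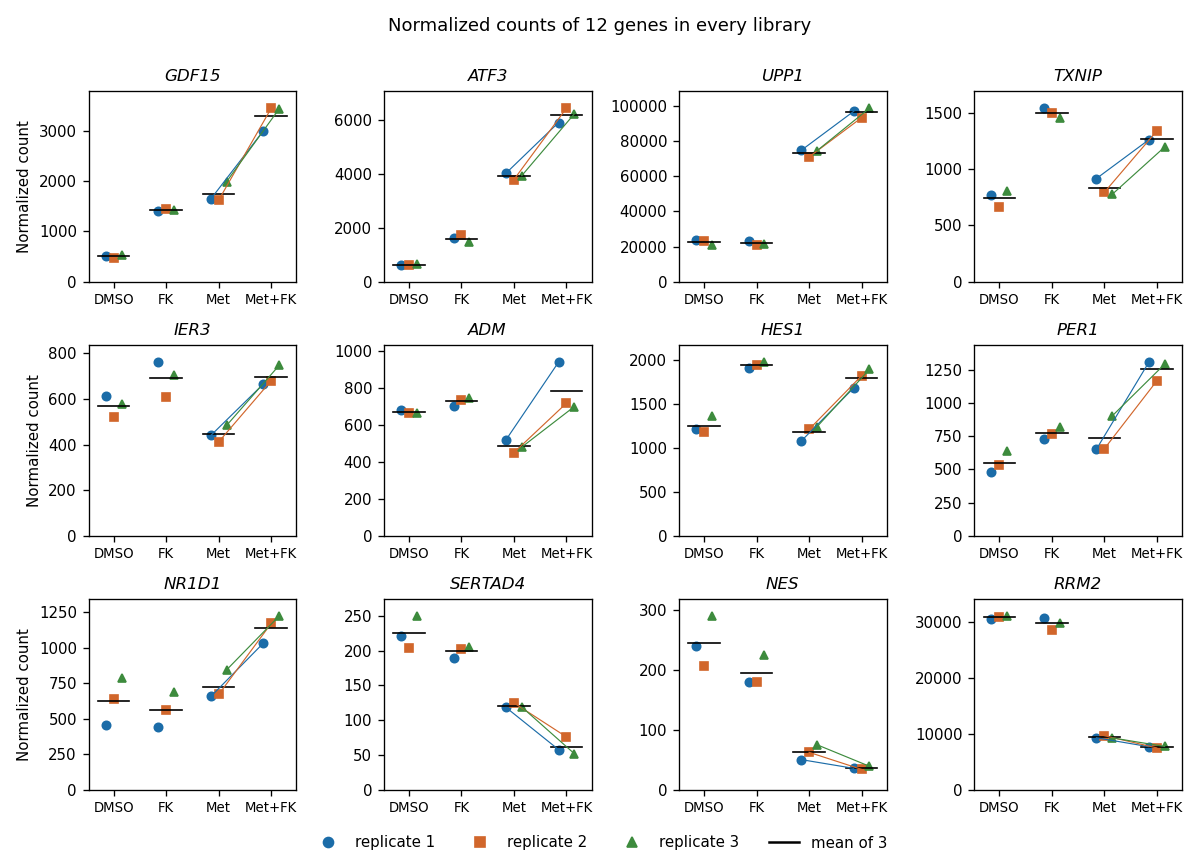
Normalized counts of 12 genes in each of the 12 libraries (symbols by replicate number, bars at the mean of 3), with lines joining Met and Met+FK libraries of the same number. GDF15 and ATF3 are higher in each pair from levels above those in DMSO (Met against DMSO shares the Met libraries), TXNIP, HES1, IER3 and ADM are higher from levels near or below those in DMSO, and SERTAD4, NES and RRM2 are lower in each pair, from levels below those in DMSO.

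Of 21 tested hypoxia-inducible genes, 11 were higher and 3 lower in all 3 pairs, with a median of 0.12 ± 0.053 (0.18 without Met+FK replicate 3). ADM, the vasodilator peptide adrenomedullin, had 520, 451 and 481 normalized counts in Met and 942, 719 and 700 in Met+FK (chromosome 11, 10305073 to 10307397). Replicate 1 stood highest in either group, no values overlapped, and ADM rose by 0.69 on the log2 scale, with a standard error of 0.11 (limma-trend adjusted p = 0.0223). NDRG1, a stress-induced differentiation gene, went from 3596, 3293 and 3602 to 4844, 4937 and 4916 normalized counts (0.49, adjusted p = 0.0185 from limma-trend). With the block, VEGFA, the angiogenic growth factor gene, rose by 0.37 (adjusted p = 0.00641 from limma-trend) and SLC2A1, the glucose transporter GLUT1, by 0.36 (adjusted p = 0.00563). Of 18 genes of glycolysis, 9 were higher and 3 lower in all 3 pairs, the median was 0.028 ± 0.016 and turned to −0.011 with libraries scaled to the same total, none passed the threshold, and HK2, PFKP and PFKL were at 0.20, 0.16 and 0.15 with overlapping groups.

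Immediate early genes, which respond to growth factors and stress within minutes, moved in both directions. Of 28 genes, 16 were higher and 5 lower in all 3 pairs, with a median of 0.13 ± 0.082. With the block 7 were past the adjusted p-value upward and 1 downward, against 0.468% and 0.312% of all genes. IER3, an early stress gene linked to survival, had 440, 412 and 484 normalized counts in Met and 666, 680 and 747 in Met+FK (chromosome 6, 30743199 to 30744548; log2 difference 0.65, standard error 0.11, adjusted p = 0.0280 from limma-trend). The lowest Met+FK value was well above the highest Met value. MYC, the growth-promoting transcription factor, rose by 0.37 (adjusted p = 0.00278 with the block from limma-trend), and JUN, JUND, KLF6 and BTG1 rose by 0.24 to 0.37. EGR1, a zinc finger factor of the MAPK response, fell from 1379, 1737 and 1728 to 1083, 1253 and 1369 normalized counts (−0.38, adjusted p = 0.0424 with the block from limma-trend), and EGR3, a relative of EGR1, was at −0.79 without passing (adjusted p = 0.128). DUSP1, a phosphatase that switches MAPKs off, had 2782, 2958 and 3515 normalized counts in Met and 4254, 4431 and 4875 in Met+FK (0.56, adjusted p = 0.0269 from limma-trend). SPRY2, an inhibitor of receptor tyrosine kinase signaling, rose by 0.32 with the block (adjusted p = 0.0392 from limma-trend), whereas the 14 MAPK feedback genes had a median of 0.0040 ± 0.118, with 4 higher and 3 lower in all 3 pairs.

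CXCL8, the neutrophil chemokine IL-8, had 1943, 1832 and 1602 normalized counts in Met and 3096, 3154 and 2724 in Met+FK (0.74, standard error 0.11, adjusted p = 0.00333 with the block from limma-trend). PTGS2, the prostaglandin synthase COX-2, had 945, 1020 and 794 in Met and 1569, 1683 and 1257 in Met+FK (0.70, adjusted p = 0.00563 with the block). Both genes had separate groups and pairs that rose by similar steps, but in the fit without the block their adjusted p-values were 0.204 and 0.0996. Of 11 inflammatory mediators, 6 were higher in all 3 pairs and 1 was lower (median 0.15 ± 0.046, but 0.078 without Met replicate 3, 0.096 without Met+FK replicate 2 and 0.065 without Met+FK replicate 3), the lower one being NFKBIA, the inhibitor of NF-κB, at −0.30 (adjusted p = 0.152 with the block). BMP2, a bone morphogenetic protein, went from 115, 143 and 104 normalized counts to 230, 209 and 190 without overlap (0.80, adjusted p = 0.0177 with the block from limma-trend). Among 15 TGF-β and BMP pathway genes, 7 were higher and 0 lower in all 3 pairs (median 0.10 ± 0.062, from 0.040 without Met replicate 1 to 0.15 without Met replicate 3), with SMAD7 at 0.30 and TGFB2 at 0.29. In the EGF family, 5 of 6 tested genes were higher in all 3 pairs (median 0.18 ± 0.067), with AREG at 0.43, EREG at 0.29 and the receptor EGFR at 0.22, none past the threshold. NRG1, a ligand of ERBB receptors outside this list, rose by 0.44 with the block (adjusted p = 0.00363 from limma-trend).

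HES1, a repressor induced by Notch signaling, had 1074, 1208 and 1237 normalized counts in Met and 1679, 1817 and 1889 in Met+FK (chromosome 3, 194136148 to 194138732). Its pairs rose by 0.64, 0.59 and 0.61 on the log2 scale, among the most even of the called genes (standard error 0.084, adjusted p = 0.0139 from limma-trend). Of 14 tested Notch pathway genes, 7 were higher and 1 lower in all 3 pairs. The median was 0.18, with pair medians of 0.169, 0.172 and 0.074 (SD 0.055). It was 0.12 without Met replicate 1 and 0.097 over members with at least 10 counts in every library. NOTCH1 was at 0.28 and HES4 at 0.29, and HES1 was the only one past the threshold. The oxidative stress regulator NRF2 has OSGIN1 among its targets, which had 2386, 1879 and 2328 normalized counts in Met and 3697, 2971 and 3240 in Met+FK (0.59, adjusted p = 0.00187 with the block from limma-trend). SRXN1, the sulfiredoxin gene, rose by 0.29 with the block (adjusted p = 0.0171). Of the 16 tested NRF2 targets, 11 were higher and 0 lower in all 3 pairs (median 0.089 ± 0.016, and 0.14 without Met replicate 1), with TKT of the pentose phosphate pathway at 0.17 without passing.

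Further called rises stood alone in their list or in none. TIPARP, a mono-ADP-ribosyltransferase that uses NAD and is induced by the aryl hydrocarbon receptor, had 5844, 6687 and 6096 normalized counts in Met and 9417, 10928 and 8707 in Met+FK (0.64, adjusted p = 0.000465 with the block from limma-trend). BMF, a BH3-only member of the BCL2 family that promotes apoptosis, had 241, 212 and 405 in Met and 478, 451 and 450 in Met+FK (0.74, adjusted p = 0.0210 with the block). Met replicate 3 was close to the Met+FK libraries, so the rise of BMF rested mainly on the other two pairs. The 16 members of the BCL2 family list, BMF included, had a median of 0.025 ± 0.018, with 3 higher and 2 lower in all 3 pairs, MCL1 at −0.22 and BCL2 at −0.26. FAM110B rose by 0.63 (adjusted p = 0.0220 from limma-trend) and SIPA1L2 by 0.59 (adjusted p = 0.0159 with the block). Past the adjusted p-value in the fit without the block, but under the fold threshold, were also RNF19B (0.37), PXK (0.40), NGFR (0.56), DUSP1, NDRG1 and UPP1.

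**Figure D3:**
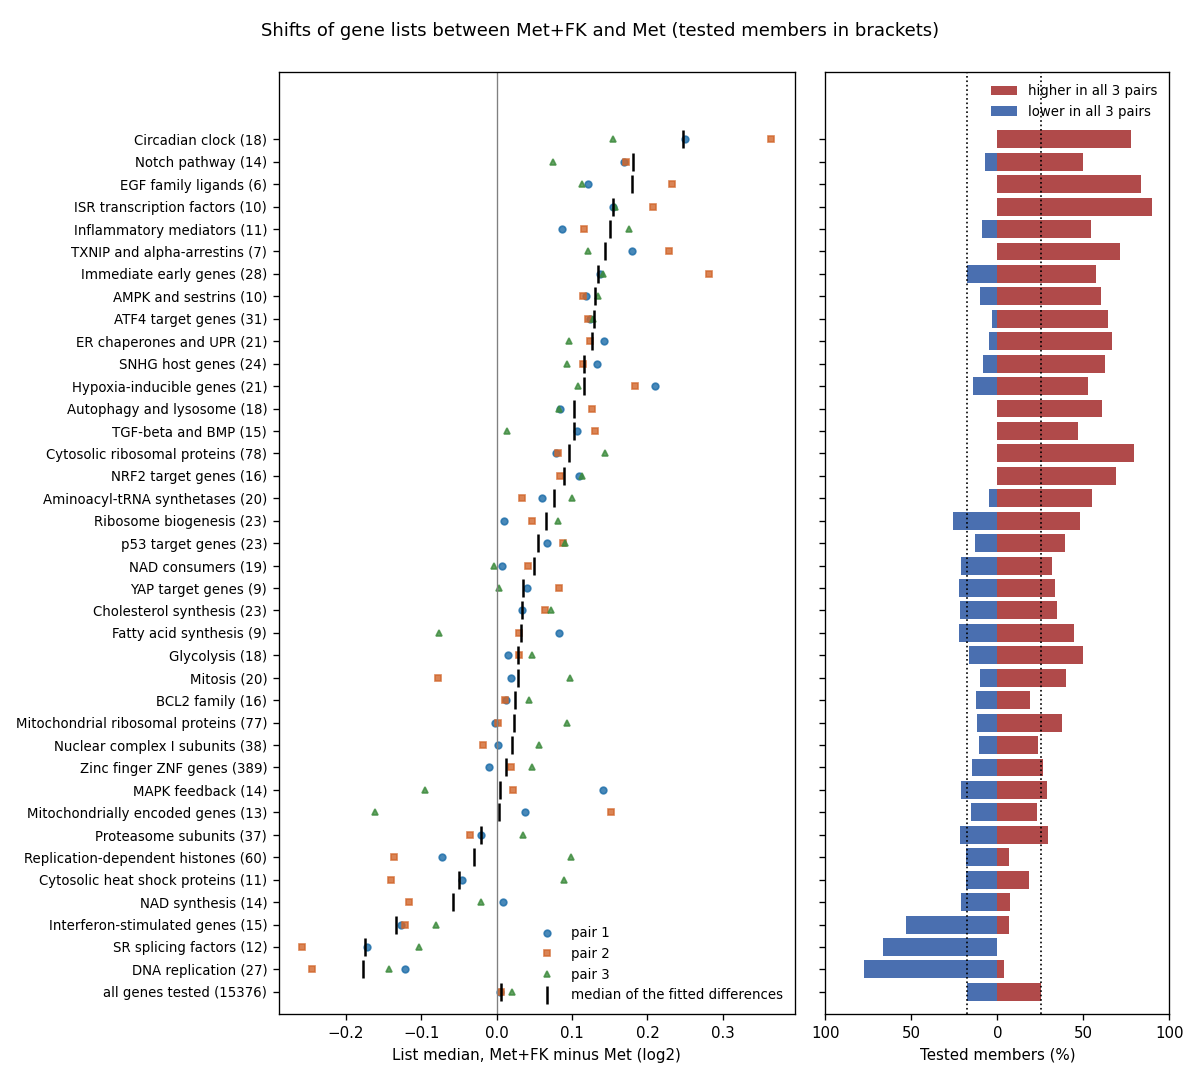
Left, median log2 difference (Met+FK minus Met) of each gene list, with the median in each replicate pair as symbols and the tested members in brackets; right, the percentage of tested members higher (red) or lower (blue) in all 3 pairs, with dotted lines at 25.1% and 17.5%, the values for all genes. The circadian clock lies at the top with 0.25, and DNA replication and SR splicing factors lie at the bottom. The SR list was made after its values were seen, so its place cannot be compared with those of the other lists.

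Of 27 DNA replication genes, 21 (77.8%) were lower and 1 higher in all 3 pairs, and the median was −0.18 ± 0.066, with a range from −0.45 to 0.052. Without overlap between the groups 12 were lower, against 5.56% of all genes. With the block 6 members were past the adjusted p-value, against 0.312% of all genes, and none of the 6 by 1.5-fold. Without the block 0 members passed, and of all tested genes only 1 lower gene did, SERTAD4. MCM10, a factor of replication initiation, had 1009, 1211 and 1020 normalized counts in Met and 717, 846 and 805 in Met+FK (−0.45, adjusted p = 0.00316 with the block from limma-trend). RRM2, the small subunit of ribonucleotide reductase, had 9280, 9659 and 9264 in Met and 7679, 7462 and 7722 in Met+FK (−0.30, adjusted p = 0.00854 with the block). PCNA, the sliding clamp of the polymerases, had 2215, 2359 and 2076 in Met and 1712, 1641 and 1904 in Met+FK (−0.34, adjusted p = 0.0304 with the block). In each of these genes the highest Met+FK library lay below the lowest Met library. CDC6, MCM3 and MCM4 fell by 0.29, 0.29 and 0.26 on the log2 scale. The median was also −0.18 with the GC and length trend removed, where 11 members passed with the block, and −0.22 with libraries scaled to the same total.

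Some further genes that passed with the block, but not without it, are named here after their values were seen. FEN1, the flap endonuclease of lagging-strand synthesis, went from 2444, 2370 and 2422 to 1915, 1721 and 1916 normalized counts (−0.38, adjusted p = 0.00316 with the block from limma-trend). UHRF1 and DTL, which act on chromatin and replication licensing in S phase, fell by 0.34 and 0.36 on the log2 scale, and the helicase gene HELLS by 0.44. CCND1, the cyclin of G1 entry, fell from 10849, 11733 and 11798 to 8850, 9054 and 9385 normalized counts (−0.33, adjusted p = 0.00462 with the block). Of 20 mitotic genes, 8 were higher and 2 lower in all 3 pairs, the median was 0.028 ± 0.087, MKI67 was at −0.20 and CDC20 at 0.18, neither past the threshold. The 60 tested replication-dependent histone genes, whose near-identical copies can share reads, had a median of −0.030 ± 0.122, with 4 higher and 11 lower in all 3 pairs, and no member past the adjusted p-value.

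Cytosolic ribosomal protein genes lay higher by a small and even step. Of 78 genes, 62 (79.5%) were higher and 0 lower in all 3 pairs, and 75 had a positive difference. Without overlap between the groups 42 were higher, against 7.88% of all genes. Their median was 0.096 ± 0.037 and the middle 50% of them lay between 0.073 and 0.128, a narrower band than the −0.092 to 0.097 of all genes. None passed the adjusted p-value with or without the block, and 3 did with the GC and length trend removed and the block. RPL12 had 44294, 43558 and 45158 normalized counts in Met and 49486, 48933 and 50265 in Met+FK, so its groups were separate although the log2 difference was only 0.16 (adjusted p = 0.288 with the block from limma-trend). RPL26 and RPS27 were at 0.18 and 0.17. With libraries scaled to the same total, the list median was 0.056 and 46 members were higher and 3 lower in all 3 pairs, and with the GC and length trend removed it was 0.11 with 57 and 0. Small nucleolar RNA host genes, many of which share the promoter type of the ribosomal protein genes, had 15 of 24 members higher and 2 lower in all 3 pairs (median 0.12 ± 0.019), with SNHG7 past the threshold (0.28, adjusted p = 0.0316 with the block) and SNHG3 and SNHG8 at 0.28 and 0.20.

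**Figure D4:**
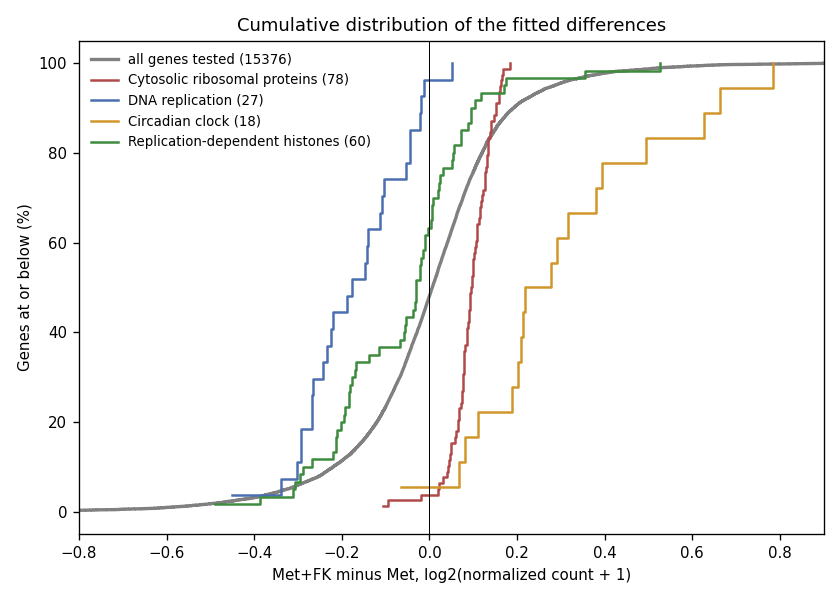
Cumulative distribution of the log2 differences (Met+FK minus Met) for all 15376 genes tested and for 4 lists, with the percentage of genes at or below each value. The ribosomal protein curve is steep and lies right of 0, the clock curve lies furthest right, and the DNA replication curve lies left of all genes over nearly its whole course.

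SERTAD4, a SERTA-domain gene, was the single lower gene called in both fits. Its normalized counts were 118, 125 and 119 in Met and 57.5, 75.8 and 51.7 in Met+FK (chromosome 1, 210232796 to 210246631), so the groups stood well apart (−0.97, standard error 0.14, adjusted p = 0.0185 from limma-trend). NES, which encodes the intermediate filament nestin, went from 50.2, 62.4 and 75.1 to 35.5, 33.8 and 39.0 normalized counts (−0.76, adjusted p = 0.0128 with the block). BEST3, a chloride channel gene, went from 48.1, 54.8 and 66.0 to 26.1, 30.5 and 42.0 (−0.77, adjusted p = 0.0451 with the block). ZNF443, IGSF10 and the antisense transcript LPP-AS2 fell with the block by 0.65, 0.60 and 0.65 on the log2 scale. AL358472.3 fell as well, but had only 3.29 to 17.0 normalized counts in these 6 libraries. The counting is not described as using strand, so the values of LPP-AS2 and of other genes that overlap a neighbour are uncertain.

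The 12 SR protein genes, splicing factors listed after their values were seen, had 0 members higher and 8 lower in all 3 pairs, with a median of −0.17 ± 0.077 (−0.11 without Met replicate 2). With the block 3 passed, against 0.312% of all genes, and without it 0. SRSF2 had 5894, 5817 and 5850 normalized counts in Met and 4374, 4121 and 4524 in Met+FK (−0.43, adjusted p = 0.00316 with the block from limma-trend). SRSF1 and SRSF5 fell with the block by 0.33 and 0.32 on the log2 scale. Outside this list, and also picked by their values, the splicing genes TRA2B, HNRNPH1 and HNRNPM fell by 0.25, 0.32 and 0.26. MAT2A, the methionine adenosyltransferase that makes S-adenosylmethionine, had 8246, 8741 and 9160 in Met and 6312, 6015 and 6652 in Met+FK (−0.46, adjusted p = 0.00309 with the block from limma-trend, not past the threshold without it). Of 15 interferon-stimulated genes, 1 was higher and 8 lower in all 3 pairs (median −0.13 ± 0.025, and −0.062 without Met replicate 2), with IFIT1 at −0.45, DDX58 at −0.29 and IFIT3 at −0.26, and none passed. ESCO2 (−0.58), RAB7B (−0.52) and AL590428.1 (−0.47) completed the 10 lowest genes by their smallest step in the 3 pairs and did not pass with the block either.

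NAMPT, which encodes the target of FK866, had 3160, 3392 and 2432 normalized counts in Met and 3198, 3382 and 2864 in Met+FK (0.083, standard error 0.16, limma-trend adjusted p = 0.962), and its groups overlapped. NAPRT, the entry enzyme of the route from nicotinic acid that does not need NAMPT, had only 15.7 to 18.8 normalized counts in these 6 libraries. Of 14 tested NAD synthesis genes, 1 was higher and 3 lower in all 3 pairs (median −0.058 ± 0.066), with KMO at −0.62, TDO2 at −0.51 and NMNAT2 at −0.18. Of 19 genes of NAD-consuming sirtuins, PARPs and hydrolases, 6 were higher and 4 lower (median 0.050, with pair medians of 0.0075, 0.042 and −0.0037, SD 0.024). SIRT1 was at 0.13, PARP1 at −0.01, PARP14 at −0.24 and PARP9 at −0.22. None of these passed in either fit, and TIPARP, which also uses NAD, is not in the list. The median of the NAD consumers was −0.0082 without Met+FK replicate 2, and that of NAD synthesis was −0.019 without Met replicate 2.

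The 13 mitochondrially encoded genes had a median of 0.0032 ± 0.158 with 3 higher and 2 lower in all 3 pairs, and MT-ND6 at −0.40 and MT-ND4 at 0.23 did not pass. The 38 nuclear complex I subunit genes had a median of 0.020 ± 0.039 (9 higher, 4 lower), and the 77 tested mitochondrial ribosomal protein genes one of 0.023 ± 0.054 (29 higher, 9 lower). MRPS6, a subunit of the small mitochondrial ribosome, was at 0.22. The proteasome (37 genes, median −0.021, 11 higher and 8 lower), cytosolic heat shock proteins (11 genes, −0.050, 2 and 2), cholesterol synthesis (23 genes, 0.034, 8 and 5), fatty acid synthesis (9 genes, 0.033, 4 and 2), YAP targets (9 genes, 0.035, 3 and 2) and ribosome biogenesis (23 genes, 0.066, 11 and 6) held no member past the adjusted p-value. The 389 zinc finger genes had a median of 0.013, with 104 higher and 58 lower in all 3 pairs, and 75 and 94 with libraries scaled to the same total. That scaling also put the medians of glycolysis, mitosis, MAPK feedback, the BCL2 family, YAP targets, cholesterol and fatty acid synthesis, zinc finger genes and the mitochondrial lists below 0. Over all 38 lists, the median took the other sign when 1 library was left out in 12, namely glycolysis, MAPK feedback, NAD consumers, the BCL2 family, heat shock proteins, the proteasome, mitosis, histones, fatty acid synthesis, mitochondrially encoded genes, complex I and zinc finger genes. Of 18 autophagy and lysosome genes, 11 were higher and 0 lower in all 3 pairs, with a median of 0.10 ± 0.025 that was 0.052 without Met+FK replicate 1, 0.068 without Met replicate 2 and 0.063 with libraries scaled to the same total, and none passed in either fit. Of 10 AMPK subunit and sestrin genes, DDIT4 among them, 6 were higher and 1 lower (0.13 ± 0.011).

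FK866 alone was set beside these values. The FK and DMSO libraries are not part of the difference between Met+FK and Met, but they entered the same fit and so its variances and block terms. Of the 72 genes higher with the block, 52 (72.2%) had a positive log2 difference of FK minus DMSO, against 48.3% of all tested genes, and of the 48 lower genes 31 (64.6%) had a negative one, against 51.7%. With the GC and length trend removed these shares were 81.9% against 43.7% and 87.5% against 56.3%. Without metformin, FK866 raised ATF3 by 1.33, TXNIP by 1.01, ARRDC4 by 1.22 and HES1 by 0.64 on the log2 scale (limma-trend adjusted p from 3.91e-07 to 0.000783). NR1D1 and DBP were at −0.15 and −0.26 without metformin, UPP1 at −0.06 and PPP1R15A at −0.04, none past the threshold. The clock list as a whole had a positive median without metformin as well, 0.24, and 0.13 with the GC and length trend removed. Of its 18 genes, 11 were higher and 3 lower in all 3 pairs of FK and DMSO. The difference between both effects was tested as an interaction in limma-trend and depended on the fit. Without the block 9 genes passed the adjusted p-value, among them ATF3 (−0.67, adjusted p = 0.0407) and PTGS2 (−1.29, 0.0407), while GDF15 (−0.59, 0.0976), DBP (0.89, 0.0803), NR1D1 (0.81, 0.111) and TXNIP (−0.40, 0.112) did not. With the replicate block 4914 genes passed, these 6 among them with adjusted p-values from 0.00129 to 0.0213, and with the GC and length trend removed, without the block, 92 passed, of these 6 ATF3, PTGS2 and GDF15.

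GC content moved with the differences of single pairs. Per 10 percentage points of GC, the log2 difference of Met+FK and Met changed by 0.062 in pair 1, 0.091 in pair 2 and −0.017 in pair 3, and that of FK and DMSO by −0.19, −0.29 and −0.20. The part of this trend in the results was not tested beyond its removal as above.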

How the data were processed

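RNA of KP4 cells was depleted of ribosomal RNA and sequenced as read pairs. By the study's methods, the authors used cutadapt for trimming, STAR for alignment (hg38) and featureCounts for read pairs with both ends mapped, and deposited a signal, the counts divided by each library's DESeq2 size factor. The annotation and strand setting were not given in the sources used here. Dividing by each library's smallest step gave whole read pairs for 100% of values within 0.01.

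Genes with a mean of at least 10 were tested with limma-trend (limma 3.58.1, R 4.3.3) on the log2 scale after adding 1, the 12 libraries sharing 1 fit, with Benjamini-Hochberg adjustment, and thresholds of 0.05 and 1.5-fold. Libraries were paired by the replicate numbers of their labels, which do not say what libraries of 1 number share. Same-numbered Met and Met+FK libraries deviated together from their group means (r = 0.171, 0.200 and 0.226 across genes). With the GC and length trend removed, r was 0.159, 0.0964 and 0.0738. The fit with the replicate number as a block is given beside the one without it.

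Alternatives were pseudocounts of 0.1 and 10, other gene filters, scaling to the same total or by TMM, only the 6 libraries compared, edgeR's quasi-likelihood test (4.0.16) and DESeq2 (1.42.0) on the recovered read pairs, removal of a loess trend (span 0.3) on GC content and length, known for 99.7% of tested genes, and each library left out in turn. With edgeR, 8 genes were called higher and 1 lower without the block, and 18 and 6 with it. The fits were also run on simulated counts, drawn without replicate effects or a GC trend. Such counts cannot check the block or the removal of the trend. Named genes were those called with or without the block, genes the study names, NAMPT, the 10 highest and 10 lowest by the smallest step over the 3 pairs (mean at least 100), and the 3 strongest of each list by moderated t. The comparison, members and lists were chosen with earlier results of these data known. Promoters came from RefSeq.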

Additional observations from a re-analysis of the deposited data

Results flagged for a closer look

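The effect of FK866 with metformin differed from that without it in the tested interaction (limma-trend without the block) for ATF3 (−0.67, adjusted p = 0.0407; −0.77, 0.00156 with the GC and length trend removed) and PTGS2 (−1.29, adjusted p = 0.0407; −0.81, 0.0169), each lower in metformin-treated cells. Without the block 9 genes passed in all, with the replicate block 4914, and with the trend removed 92.

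Lists whose median was positive in all 3 pairs of Met+FK and Met and negative in all 3 pairs of FK and DMSO were cytosolic ribosomal proteins (0.096 with metformin, −0.17 without), small nucleolar RNA host genes (0.12, −0.20), TXNIP and α-arrestins (0.14, −0.12), autophagy and lysosome (0.10, −0.092), ribosome biogenesis (0.066, −0.15), YAP targets (0.035, −0.12), cholesterol synthesis (0.034, −0.11), glycolysis (0.028, −0.21) and the BCL2 family (0.025, −0.036). These differences were not tested. A list median need not hold for each member. Of the 7 genes in the TXNIP and α-arrestin list, 3 were higher and 4 lower in all 3 pairs of FK and DMSO. TXNIP and ARRDC4 rose with FK866 in both comparisons, as given above. Other lists had medians of the same sign in all 3 pairs of both comparisons. Among them were the EGF family (0.18 with metformin, 0.62 without), inflammatory mediators (0.15, 0.40), AMPK and sestrins (0.13, 0.29), the clock (0.25, 0.24) and hypoxia-inducible genes (0.12, 0.22). So were integrated stress response factors (0.15, 0.13), ATF4 targets (0.13, 0.14) and DNA replication (−0.18, −0.13). With the GC and length trend removed, the values without metformin became −0.080 for ribosomal proteins, 0.11 for TXNIP and α-arrestins, 0.0045 for autophagy and lysosome, 0.011 for the BCL2 family, −0.021 for cholesterol synthesis, −0.092 for glycolysis, −0.092 for small nucleolar RNA host genes, −0.11 for ribosome biogenesis and −0.19 for YAP targets. For the lists of the same sign they became 0.53 for the EGF family, 0.20 for inflammatory mediators, 0.039 for AMPK and sestrins, 0.13 for the clock and 0.10 for hypoxia-inducible genes. They were 0.24 for integrated stress response factors, 0.18 for ATF4 targets and −0.15 for DNA replication.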

How the results depend on the processing

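Without the replicate block, the 8 higher and 1 lower genes became 16 and 2 with only the 6 libraries compared, 18 and 7 with the replicate block, 18 and 3 with the replicate block and only the 6 libraries, 18 and 6 with edgeR and the replicate block, 16 and 4 with DESeq2, 18 and 7 with DESeq2 and the replicate block, 14 and 7 with the GC and length trend removed, 17 and 18 with that and the replicate block, and 14 and 1 with the adjusted p-value alone. The lower gene count was 2 with all genes of any value above 0 and 2 with libraries scaled to the same total. Leaving out 1 library gave 2 to 8 higher and 0 to 1 lower genes, with 2 higher without Met replicate 2 or Met+FK replicate 2. In edgeR without the block 612 higher and 478 lower genes had an unadjusted p under 0.05, and in limma-trend 578 and 473.

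With the replicate block (18 and 7), no block gave 8 and 1, the adjusted p-value alone 72 and 48, the GC and length trend removed 18 lower, and a pseudocount of 10 gave 4 lower. These changes of fold threshold and pseudocount, and the fits that left out 1 library with the block, which gave 8 to 18 higher (8 without Met replicate 2) and 1 to 8 lower genes (1 without Met replicate 2 or 3, 4 without Met+FK replicate 2), were chosen after seeing the data. Genes lower in all 3 pairs numbered 4086 with libraries scaled to the same total. List medians reversed for glycolysis (−0.011 with the same total, −0.00081 with the GC and length trend removed, and −0.040 to 0.0894 when 1 library was left out, below 0 without Met replicate 1 (−0.0069), Met replicate 2 (−0.0060) or Met+FK replicate 3), YAP targets (−0.0044 with the same total), cholesterol synthesis (−0.0054) and, for the median difference of BCL2 family genes, −0.014, and −0.0076 to 0.0473 when 1 library was left out, below 0 without Met+FK replicate 3. Over the fits that left out 1 library 12 lists changed sign, as named above, and the same total put further lists below 0. NAMPT ranged from −0.060, without Met replicate 3, to 0.18. Without the block, IER3, TXNIP, ADM, PER1 and NDRG1 each passed the adjusted p-value in just 1 of the 6 leave-one-out fits, FAM110B, HES1 and SERTAD4 in 2 and UPP1 in 0. With the block, BEST3, ZNF443 and AL358472.3 passed in 0 of 6, ARRDC4, BMP2, DBP and LPP-AS2 in 1, and BMF, NES, SIPA1L2, DDIT4 and STC2 in 2, and with only the 6 libraries BEST3 (adjusted p = 0.0708), BMF (0.0753), NES (0.0769), AL358472.3 (0.0804) and LPP-AS2 (0.0574) did not pass in limma-trend. Of 38 list medians, 9 moved by at most 1.5 times in all 6 leave-one-out fits. The causes were not tested.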
